A study of Mus musculus with 9 samples.

Results

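The genes described here are 10 genes of the major histocompatibility complex (MHC) class I presentation pathway: the heavy chain genes H2-K1 and H2-D1, the light chain gene B2m, the peptide transporter genes Tap1 and Tap2, the loading factor gene Tapbp, the immunoproteasome genes Psmb8, Psmb9 and Psmb10, and the transcriptional regulator gene Nlrc5. They were chosen by name, with earlier results of these data known. All 10 were found among the 50508 gene rows of a read count table of 9 libraries. The libraries came from 3 populations sorted from mouse spleen, with 3 libraries each: conventional T cells, conventional dendritic cells (DC), and cells that the submitters call TDC, for which T cells and DC served as controls. All mice were naive, untreated, 8 weeks old and homozygous for Zbtb46-GFP, a reporter allele at a locus used by conventional DC, so every population carries the allele and no wild-type mouse is included. Replicate 1 of each population was a pool of spleens from 5 mice, and replicates 2 and 3 were pools from 6 mice. The sources used here do not give the gates of the sort, the strain background or whether populations with the same replicate number share mice.

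Class I molecules display peptides from proteins made inside a cell. The proteasome cuts those proteins, and in cells exposed to interferon, and constitutively in many leukocytes, its catalytic subunits are replaced by Psmb8, Psmb9 and Psmb10 to form the immunoproteasome. The TAP transporter, a dimer of Tap1 and Tap2, moves peptides into the endoplasmic reticulum, where tapasin (Tapbp) helps to load them onto a heavy chain paired with beta-2 microglobulin (B2m). Nlrc5 is a transactivator of these genes, and acts through promoter elements bound by RFX, CREB/ATF and NF-Y factors. CD8 T cells read the loaded complexes, natural killer cells sense their absence, and DC use them to prime CD8 T cells.

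In the GENCODE M21 annotation of GRCm38, 7 of the 10 genes lie on chromosome 17 in the MHC region. Tapbp and H2-K1 come first, and Psmb9, Tap1, Psmb8 and Tap2 follow as neighbours between 34181987 and 34216321. H2-D1 lies at 35262730 to 35267499. B2m is on chromosome 2 (122147686 to 122153083), and Nlrc5 (94434356 to 94527272) and Psmb10 (105935735 to 105938444) are on chromosome 8. RefSeq promoter windows of 300 bases (250 before and 50 after the annotated start, GRCm38.p6) matched 8 of the 10 genes; Tap2 and Nlrc5 had no entry. The 4 windows below are shown because the results turn on these genes: H2-K1 and H2-D1 are the classical heavy chain genes, B2m encodes their partner, and Tap1 faces Psmb9 across a shared start region. They are written 5′ to 3′ on the gene's strand, and capitals mark matches, on either strand, to CCAAT, AANNGAAA (the core bound by interferon regulatory factors), GGGNNNNNCCC (a loose pattern of the NF-kappa B kind with free middle bases), TGACG (the core bound by CREB/ATF factors) and TATAAA. The window of H2-K1 is chr17:34000298-34000597 on the minus strand, that of H2-D1 chr17:35262844-35263143 on the plus strand, that of B2m chr2:122147437-122147736 on the plus strand and that of Tap1 chr17:34187306-34187605 on the plus strand.
H2-K1: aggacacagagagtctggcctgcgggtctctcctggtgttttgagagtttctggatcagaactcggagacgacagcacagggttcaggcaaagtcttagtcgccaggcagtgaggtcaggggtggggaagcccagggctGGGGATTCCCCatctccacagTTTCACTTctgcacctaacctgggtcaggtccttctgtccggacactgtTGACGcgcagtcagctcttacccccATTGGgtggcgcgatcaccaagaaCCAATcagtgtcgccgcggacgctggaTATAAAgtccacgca
H2-D1: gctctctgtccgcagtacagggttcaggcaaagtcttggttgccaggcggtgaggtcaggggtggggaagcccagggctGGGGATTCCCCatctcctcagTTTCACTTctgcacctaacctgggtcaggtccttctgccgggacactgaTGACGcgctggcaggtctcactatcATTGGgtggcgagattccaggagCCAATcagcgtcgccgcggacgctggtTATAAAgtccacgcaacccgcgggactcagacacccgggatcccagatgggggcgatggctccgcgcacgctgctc
B2m: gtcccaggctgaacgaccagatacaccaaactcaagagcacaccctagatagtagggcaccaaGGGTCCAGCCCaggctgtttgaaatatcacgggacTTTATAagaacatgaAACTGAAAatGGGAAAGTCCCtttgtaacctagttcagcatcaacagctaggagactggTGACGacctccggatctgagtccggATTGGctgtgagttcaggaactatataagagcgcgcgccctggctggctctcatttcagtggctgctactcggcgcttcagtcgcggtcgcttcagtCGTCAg
Tap1: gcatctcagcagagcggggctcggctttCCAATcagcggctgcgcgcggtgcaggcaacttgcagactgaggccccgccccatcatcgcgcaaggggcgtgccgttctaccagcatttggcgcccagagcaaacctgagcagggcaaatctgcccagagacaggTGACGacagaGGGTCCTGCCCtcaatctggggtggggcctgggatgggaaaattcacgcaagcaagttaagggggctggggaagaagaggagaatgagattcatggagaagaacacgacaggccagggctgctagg

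The windows of H2-K1 and H2-D1 held all 5 motifs, including the same GGGGATTCCCC (a match to GGGNNNNNCCC) and the same TTTCACTT (AANNGAAA on the other strand). Relative to the annotated start, TATAAA began at 35 in H2-K1 and at -26 in H2-D1, so the 2 windows are not placed alike. H2-K1 has a second annotated start 14 bases from the one shown. A local alignment of the 2 windows had 206 identical bases in 228 columns (90.4%). The B2m window held all 5 motifs as well, with GGGTCCAGCCC and GGGAAAGTCCC as matches to GGGNNNNNCCC, and its best local alignment with H2-K1 had 68 identical bases in 111 columns (61.3%). The Tap1 window held CCAAT once, GGGTCCTGCCC as its match to GGGNNNNNCCC and a single TGACG, but no match to AANNGAAA or TATAAA. It overlapped the window of Psmb9, which is on the opposite strand, by 275 bases, and the 2 annotated starts lie 226 bases apart, so the motifs of one are the motifs of the other. The Tapbp window held CCAAT only, the Psmb8 window TATAAA only, and the Psmb10 window none of the 5. Among all 32851 mouse promoter windows of this length, 37.4% hold CCAAT, 23.9% AANNGAAA, 14.0% GGGNNNNNCCC, 20.8% TGACG and 13.6% TATAAA. A match describes letters in a window and does not show that a factor binds there.

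Library totals ran from 10986544 to 25676640 counted reads. Levels are given as CPM (reads of a gene scaled to the library total) after trimmed mean of M-values (TMM) scaling, and differences as log2 fold changes with standard error (SE) from edgeR's quasi-likelihood test, adjusted by Benjamini-Hochberg over 14708 genes. T cell markers summed to 5074 to 7965 CPM in T cell libraries, at most 3.90 in DC and 50.6 to 169 in TDC. Conventional DC markers summed to 1959 to 3044 CPM in DC, 99.8 to 179 in T cells and 158 to 438 in TDC. Most of the T cell sum came from Dpp4, and without it the other 5 DC markers summed to 1539 to 2343 CPM in DC, 4.04 to 6.58 in T cells and 131 to 337 in TDC. Red pulp macrophage markers such as Adgre1 and C1qa summed to 37641 to 70911 CPM in TDC, 184 to 299 in DC and at most 4.84 in T cells, and all 8 were called higher in TDC than in either control. Over all genes, 21.8% were called higher in TDC than in T cells and 9.55% higher than in DC. Erythroid markers summed to 597 to 2068 CPM in TDC and at most 22.4 elsewhere. Natural killer cell markers summed to 422 to 1228 CPM in T cells and at most 24.8 elsewhere. B cell markers summed to 207 to 278 CPM in DC, 68.2 to 129 in TDC and 14.1 to 32.2 in T cells. Of these 4 markers, all had positive log2 fold changes for DC against T cells, with a call for Ms4a1 only. For TDC against DC, 2 were positive and 2 negative, with Ms4a1 called lower and no other call. Over all genes, 15.4% were called higher in DC than in T cells and 4.60% lower in TDC than in DC. Plasmacytoid DC markers summed to 258 to 464 CPM in TDC, 158 to 173 in DC and 173 to 210 in T cells, but did not move together. For TDC against T cells, edgeR called Siglech and Tcf4 higher and Ccr9 lower (-3.29), where 11.2% of all genes were called lower. For TDC against DC it called only Bst2, which was higher. Neutrophil markers summed to 63.3 CPM in TDC replicate 1, 5.35 and 0.298 in TDC replicates 2 and 3, and at most 2.23 elsewhere. Cd3e and Cd3g had no reads in DC, nor Adgre1 and C1qc in T cells. Zbtb46, the reporter locus, was counted at 1.28 ± 0.304 CPM (SD, n = 3) in T cells, 67.0 ± 40.9 in DC and 7.94 ± 2.22 in TDC. The part of other cells in any TDC value below was not tested, and in sorted bulk samples fewer cells of a type and less RNA per cell cannot be told apart. Reads of ribosomal protein genes made up 3.69% to 4.64% of a T cell library, 1.13% to 2.53% of a DC library and 0.458% to 0.933% of a TDC library, and the library with the highest share in each population (T cell replicate 2, DC replicate 2 and TDC replicate 1) stood apart for most of the 10 genes, as described further on.

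The heavy chain genes were high in all 3 populations, and every DC and TDC library had less H2-K1 than every T cell library, though no adjusted p of H2-K1 was under 0.05 in edgeR's test. H2-K1, the heavy chain of H-2K, was counted at 5639, 5596 and 4841 CPM in T cells, 3070.4, 3323 and 2363 CPM in DC and 4192, 2494 and 3041 CPM in TDC (replicates 1, 2 and 3 in this and the next lists). Every T cell library was above every DC and TDC library, while the DC and TDC ranges overlapped. The log2 fold change of DC against T cells was -0.88 (SE 0.31, 95% interval -1.55 to -0.20, adjusted p = 0.0623), and that of TDC against T cells was -0.72 (SE 0.31, interval -1.40 to -0.05, adjusted p = 0.0938). TDC and DC differed by 0.15 (interval -0.52 to 0.82, adjusted p = 0.805). The H2-K1 call depended on the tool: the DESeq2 Wald test gave adjusted p = 0.0102 and 0.0340 for DC and TDC against T cells, and limma-voom gave 0.0155 and 0.0270.

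H2-D1, the heavy chain of H-2D, did not follow H2-K1 in TDC. Its level was 7169.6, 7660.4 and 6494 CPM in T cells, 5151, 5274 and 4203 CPM in DC and 10343, 6558 and 6388 CPM in TDC. DC libraries lay below all others, and TDC replicate 1 lay above all others. The differences were -0.54 for DC against T cells (SE 0.30, adjusted p = 0.237), 0.13 for TDC against T cells (SE 0.30, interval -0.54 to 0.80, adjusted p = 0.786) and 0.67 for TDC against DC (SE 0.31, adjusted p = 0.182). The TDC against T cell difference was below 0 without TDC replicate 1 (-0.12), with library size scaling alone (-0.50) and with upper-quartile factors (-0.12).

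The balance of the 2 heavy chains separated the populations, in a ratio taken within each library and so free of scaling. H2-K1 took 44.0%, 42.2% and 42.7% of the summed H2-K1 and H2-D1 reads in T cells, 37.3%, 38.6% and 36.0% in DC and 28.8%, 27.5% and 32.2% in TDC. No population overlapped another, with T cells highest and TDC lowest. The means were 43.0% ± 0.935 (SD, n = 3) in T cells, 37.3% ± 1.33 in DC and 29.5% ± 2.43 in TDC. Each of the 3 differences had p = 0.1 in a two-sided exact permutation test, the smallest that 3 against 3 libraries allow, and 0.1 after adjustment over the 3. This share was computed after the levels had been seen. Over the last 500 bases of the longest coding transcript, 2 of 451 words of 50 bases in H2-K1 occur in another gene's transcripts (H2-D1), and 43 of 451 (9.53%) in H2-D1 occur in transcripts of 80 other genes. The other 8 genes share none. How the counting treated reads that fit several genes is not stated in the sources used here, and the effect of another MHC haplotype on mapping was not tested.

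B2m, the light chain common to all class I molecules, spread more within a population than between populations. It was counted at 4123, 6908 and 3664 CPM in T cells, 3615, 5728 and 2189.9 CPM in DC and 8094, 4059.8 and 4280.2 CPM in TDC. The highest library of each population was the one with the highest ribosomal share, and all 3 ranges overlapped. The differences were -0.35 (SE 0.44, adjusted p = 0.636), 0.16 (SE 0.44, adjusted p = 0.814) and 0.51 (SE 0.44, adjusted p = 0.508) for DC and TDC against T cells and for TDC against DC. The last interval, -0.47 to 1.50, leaves room for a difference in either direction.

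**Figure D1:**
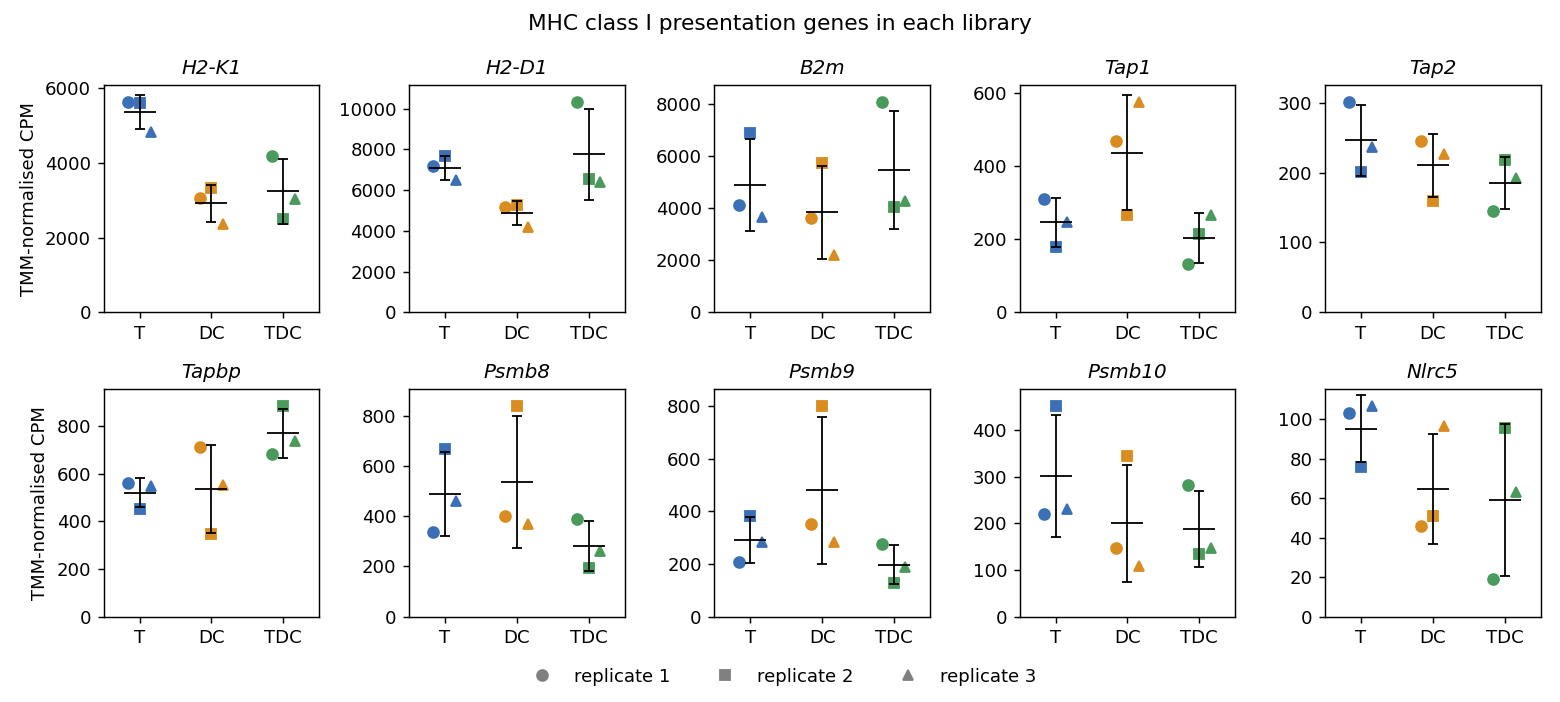
TMM-normalised CPM (linear axis from 0) of each of the 10 genes in the 3 libraries of T cells, DC and TDC. Points are libraries with a shape for each replicate number, and bars give the mean and SD (n = 3). H2-K1 is at 4841 CPM or more in every T cell library and at 4192 CPM or less in every DC and TDC library, while most other genes overlap.

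Of the transporter genes, Tap1 differed most between DC and TDC and Tap2 little. Tap1 stood at 310.2, 179 and 247 CPM in T cells, 468, 265 and 575 CPM in DC and 131, 215 and 265 CPM in TDC. DC replicates 1 and 3 were above every other library, and DC replicate 2 was level with TDC replicate 3. The log2 fold change of TDC against DC was -1.10 (SE 0.39, interval -1.96 to -0.24, adjusted p = 0.0906), and that of DC against T cells was 0.83 (SE 0.39, adjusted p = 0.155). TDC against T cells gave -0.27 (SE 0.38, adjusted p = 0.637). Without DC replicate 2, the TDC against DC difference of Tap1 was -1.42 and passed the test (edgeR adjusted p = 0.0411). It was the only pass among 21 alternative settings planned at the start, in which the difference ran from -1.47 to -0.80.

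Tap2, the partner of Tap1 in the transporter, was at 301, 202 and 236 CPM in T cells, 245, 159 and 226 CPM in DC and 145, 219 and 192 CPM in TDC. All 3 ranges overlapped. Its differences were -0.23 (SE 0.30, adjusted p = 0.651), -0.41 (SE 0.30, adjusted p = 0.330) and -0.18 (SE 0.30, adjusted p = 0.751) for DC and TDC against T cells and for TDC against DC.

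Tapbp, which bridges the transporter and the empty heavy chain, was at 563, 449.9 and 550.1 CPM in T cells, 713, 346 and 552 CPM in DC and 684, 885 and 739 CPM in TDC. All TDC libraries were above all T cell libraries, and DC replicate 1 fell within the TDC range. TDC against T cells gave 0.56 (SE 0.32, interval -0.14 to 1.26, adjusted p = 0.200), TDC against DC 0.52 (SE 0.32, adjusted p = 0.321) and DC against T cells 0.04 (SE 0.31, adjusted p = 0.951).

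The immunoproteasome genes had their lowest mean in TDC, as did Psmb6 and Psmb7, which encode subunits that the immunoproteasome replaces. Psmb9 was lower in every TDC library than in every DC library. Psmb9 was at 209, 384 and 284 CPM in T cells, 353, 801 and 285 CPM in DC and 278, 128 and 187 CPM in TDC. DC replicate 2 was the highest of the 9 libraries, and the T cell range overlapped both DC and TDC. The log2 fold change of TDC against DC was -1.28 (SE 0.46, interval -2.29 to -0.27, adjusted p = 0.0932). DC against T cells gave 0.71 (SE 0.45, adjusted p = 0.298) and TDC against T cells -0.56 (SE 0.45, adjusted p = 0.374). The DESeq2 Wald test gave adjusted p = 0.0436 for TDC against DC. Without DC replicate 2, edgeR's difference was -0.77 (adjusted p = 0.214).

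Psmb8 stood at 339, 669 and 462 CPM in T cells, 401, 841 and 368 CPM in DC and 391, 194 and 262 CPM in TDC. TDC replicate 1 lay within the range of the controls, and the other TDC libraries lay below it. Its differences were -0.93 for TDC against DC (SE 0.42, interval -1.86 to 0.01, adjusted p = 0.186), -0.80 for TDC against T cells (SE 0.42, adjusted p = 0.178) and 0.13 for DC against T cells (SE 0.42, adjusted p = 0.870).

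Psmb10 was at 221, 452 and 232 CPM in T cells, 148, 344 and 109 CPM in DC and 283, 134 and 147 CPM in TDC. In each population 1 library stood well above the other 2, and the ranges overlapped. The differences were -0.59 (SE 0.50, adjusted p = 0.447), -0.68 (SE 0.50, adjusted p = 0.326) and -0.09 (SE 0.50, adjusted p = 0.938) for DC and TDC against T cells and for TDC against DC.

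Since each immunoproteasome subunit takes the place of a constitutive one (Psmb8 of Psmb5, Psmb9 of Psmb6, Psmb10 of Psmb7), the share of the immune subunit in the reads of its pair was computed within each library. Psmb8 took 90.7%, 89.8% and 92.6% of the pair in T cells, 90.0%, 91.2% and 90.5% in DC and 82.3%, 85.7% and 88.3% in TDC. All TDC libraries were below all others. Psmb9 took 50.1%, 49.2% and 57.5% in T cells, 68.3%, 66.7% and 72.1% in DC and 47.4%, 52.6% and 62.1% in TDC. DC libraries were above all others, with a mean of 69.1% ± 2.78 (SD, n = 3) against 52.3% ± 4.56 in T cells and 54.0% ± 7.48 in TDC. Psmb10 took 85.0%, 90.1% and 86.0% in T cells, 77.7%, 85.7% and 72.9% in DC and 83.6%, 80.8% and 82.7% in TDC, with TDC below T cells in every library and DC overlapping both. In the exact permutation test, two-sided over the libraries, the 5 differences without overlap had p = 0.1 and an adjusted p of 0.18 over the 9 tests. The other 4 had exact permutation p-values of 0.2 to 0.8. The constitutive genes gave no call in any comparison by edgeR, DESeq2 or limma-voom, with 0 of 3 at an unadjusted p under 0.05. In T cells, DC and TDC, Psmb6 averaged 271, 224 and 179 CPM, Psmb7 42.1, 46.8 and 39.4, and Psmb5 49.3, 54.9 and 50.5.

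**Figure D2:**
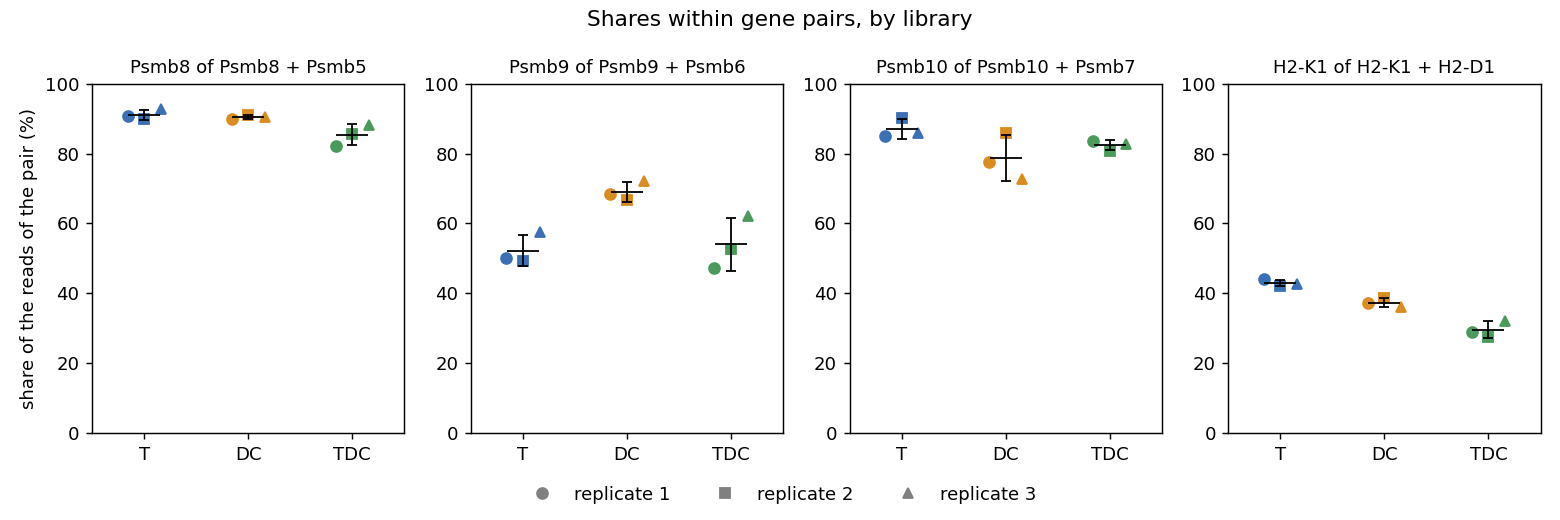
Share of reads (%, axis from 0 to 100) that the named gene takes within its pair, by library, with mean and SD (n = 3). TDC lie lowest for Psmb8 and for H2-K1, and DC lie highest for Psmb9.

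Nlrc5, the transactivator, was at 103, 75.9 and 107 CPM in T cells, 46.1, 50.9 and 96.6 CPM in DC and 18.8, 95.5 and 63.1 CPM in TDC. The TDC libraries alone ranged more widely than the 3 population means, and all ranges overlapped. Its differences were -0.56 (SE 0.52, adjusted p = 0.500), -0.69 (SE 0.53, adjusted p = 0.350) and -0.12 (SE 0.52, adjusted p = 0.917) for DC and TDC against T cells and for TDC against DC.

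Counted together, none of the 10 genes passed an adjusted p of 0.05 in edgeR's test in any comparison. For DC against T cells the background was 23.8% of 14708 genes called, 15.4% higher and 8.41% lower. At an unadjusted p under 0.05, 1 of the 10 was lower (H2-K1), and DESeq2 and limma-voom each called that 1 gene (each called 11.7% of all genes lower). For TDC against T cells, where 33.0% of genes were called, 21.8% higher and 11.2% lower, the same counts held, again H2-K1 (DESeq2 called 14.8% and limma-voom 13.9% of all genes lower). For TDC against DC, where 14.1% were called, 9.55% higher and 4.60% lower, 2 genes had an unadjusted p under 0.05 (Tap1 and Psmb9, both lower), DESeq2 called 1 (Psmb9) and limma-voom 0, beside 8.39% and 7.15% of all genes lower. All these percentages are at an adjusted p under 0.05, and the share of all genes at an unadjusted p under 0.05 was not counted. The median log2 fold changes of the 10 genes were -0.29, -0.49 and -0.11, beside 0.08, 0.14 and 0.01 over all genes tested. Libraries did not overlap for 2 genes lower in DC than in T cells (H2-K1 and H2-D1, background 17.9%). They did not overlap for 1 gene higher (Tapbp, background 29.6%) and 1 lower (H2-K1, 22.4%) in TDC than in T cells, and for 1 higher (H2-D1, 20.1%) and 1 lower (Psmb9, 14.8%) in TDC than in DC. A p that misses the threshold does not show equal levels, and the intervals of single genes reached to 1.85 below (Nlrc5) and 1.26 above (Tapbp) in log2 for TDC against T cells. The 3 comparisons share groups, so their values are not independent.

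**Figure D3:**
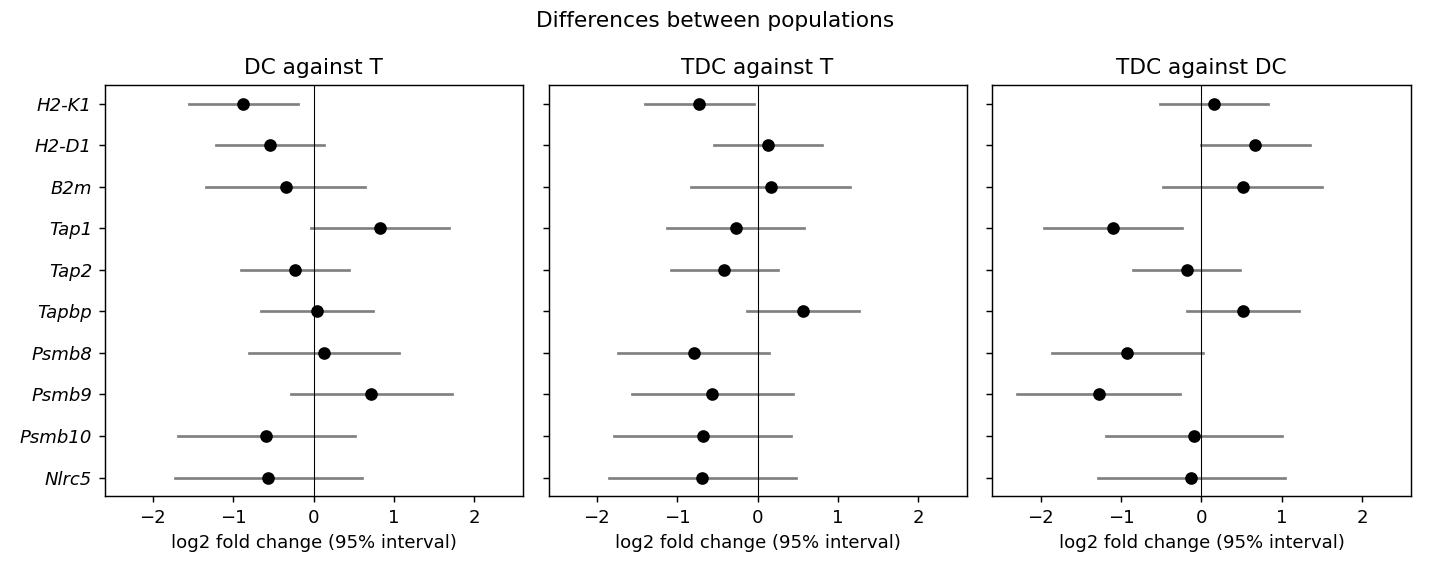
Log2 fold changes (points) and 95% intervals (lines) of the 10 genes in the 3 comparisons, from edgeR's fit of all 9 libraries. The intervals of H2-K1 lie below 0 in both comparisons with T cells, and those of Tap1 and Psmb9 lie below 0 for TDC against DC, though no adjusted p was under 0.05.

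Summed, the 10 genes took 2.46%, 2.53% and 2.22% of all reads in T cells, 1.45%, 1.50% and 1.23% in DC and 1.79%, 1.19% and 1.43% in TDC. T cells were above all other libraries, and DC and TDC overlapped. Exact permutation p-values, two-sided, were 0.1 for both differences from T cells (adjusted 0.15 over 3) and 0.9 for TDC against DC. On the TMM scale the sums were 17118 to 22576 CPM in T cells, 10967 to 17131 in DC and 14982 to 24560 in TDC, so that TDC and T cells overlapped there. Most of each sum came from H2-K1, H2-D1 and B2m, which were at 2189.9 CPM or more in every library. No other member exceeded 885 CPM in any library, so the sums say little about the rest.

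Class II molecules, which display peptides from material taken up by the cell, divided the populations far more than class I. The summed reads of H2-K1, H2-D1 and B2m made up 99.97%, 99.83% and 99.96% of their sum with H2-Aa, H2-Ab1, H2-Eb1 and Cd74 in T cells. The same share was 12.8%, 11.7% and 13.2% in DC and 51.7%, 56.7% and 49.6% in TDC. No population overlapped another, with p = 0.1 in a two-sided exact permutation test for each of the 3 differences, the smallest possible. Of 11 class II presentation genes, edgeR called 11 higher in DC than in T cells, 9 higher in TDC than in T cells, and 1 higher (Ctss) and 3 lower (H2-DMb2, H2-Oa and H2-Ob) in TDC than in DC. DESeq2 called 7 and limma-voom 9 of them lower in TDC than in DC. Over all genes, edgeR called 15.4% higher in DC and 21.8% higher in TDC than in T cells. For TDC against DC it called 9.55% higher and 4.60% lower, while DESeq2 called 8.39% and limma-voom 7.15% lower. Cd74, the invariant chain, was at 10.8 ± 9.83 CPM in T cells, 30306 ± 5201 in DC and 8161 ± 3147 in TDC (SD, n = 3).

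**Figure D4:**
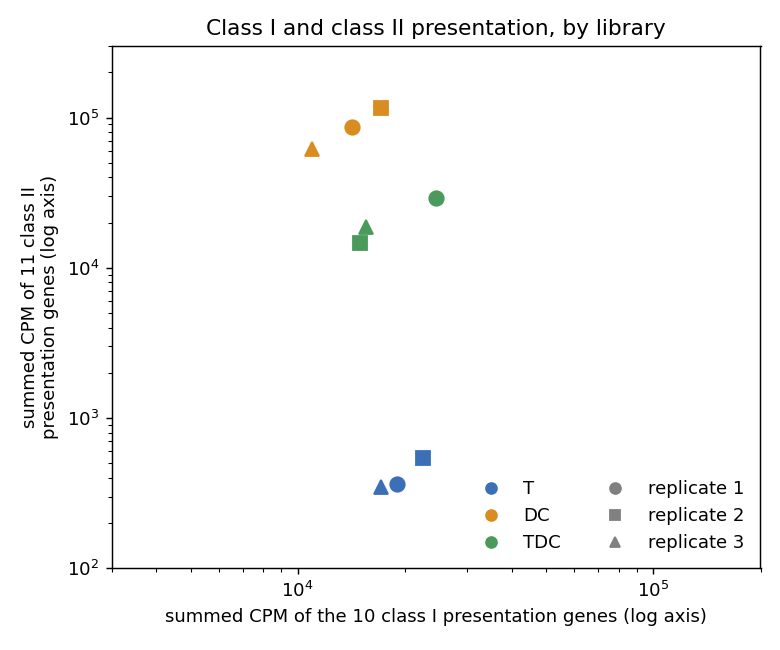
Summed CPM of the 10 class I presentation genes (x, log axis) against summed CPM of 11 class II presentation genes (y, log axis) in the 9 libraries, coloured by population. The class I sums run from 10967 to 24560 CPM over all libraries, and the class II sums from 348 CPM (T cells) to 116416 CPM (DC). Most of each class I sum is H2-K1, H2-D1 and B2m.

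The spread within populations had a common direction across the 3 sorts. In the library with the highest ribosomal share of each population, H2-D1, B2m, Psmb8, Psmb9 and Psmb10 were at their highest in all 3 populations (5 of 10, against 22.7% of 8948 genes with a mean of at least 10 CPM). Tap1, Tap2 and Tapbp were at their lowest in all 3 (3 of 10, against 17.6%). The 6 genes whose longest coding transcripts are shortest, from B2m with 860 bases to H2-D1 with 2102, were above the mean of the other 2 libraries in each population. The 4 longest, from Tapbp with 2898 to Nlrc5 with 7578 bases, were below it. Over all such genes, median transcript length was 1543 bases for those highest in all 3 of these libraries, 3988.5 for those lowest in all 3 and 3254.5 for the rest. The sources used here give no RNA integrity values, and the part of transcript length or RNA quality in these differences was not tested.

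**Figure D5:**
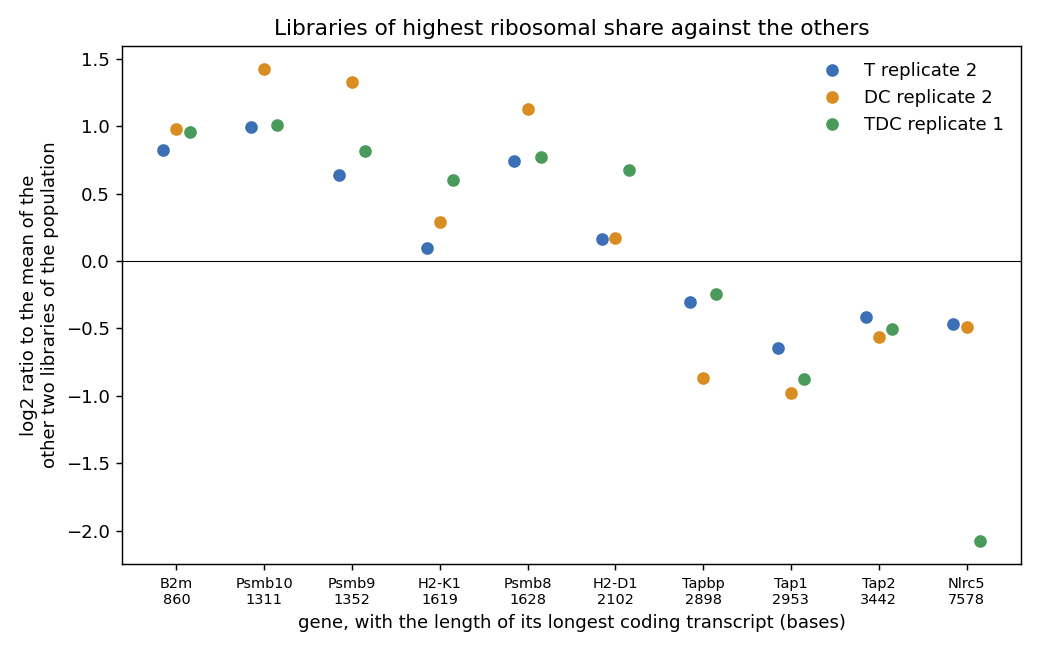
Log2 ratio of the library with the highest ribosomal share to the mean of the other 2 libraries of its population, for the 10 genes ordered by the length of their longest coding transcript (bases). The 6 shortest are above 0 and the 4 longest below 0 in T cells, DC and TDC alike.

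Tap1 and Psmb9 start 226 bases apart on opposite strands, and their read ratio varied within each population. The reads of Psmb9 divided by those of Tap1 gave 0.672, 2.15 and 1.15 in T cells, 0.753, 3.03 and 0.496 in DC and 2.12, 0.597 and 0.707 in TDC. The highest ratio of each population was in the library of highest ribosomal share. Psmb8 over its neighbour Tap2 gave 1.12, 3.32 and 1.96 in T cells, 1.64, 5.28 and 1.63 in DC and 2.70, 0.889 and 1.37 in TDC, with the highest value in the same libraries. The H2-K1 to H2-D1 ratio, by contrast, was 0.731 for T cell replicate 2 and 0.630 for DC replicate 2, close to the other libraries of their population.

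More members, and more genes over the whole table, were called when this axis entered the fit. With log2 ribosomal share, centred within each population, as a covariate (a fit chosen after seeing the data), edgeR's test called Tap1 (0.78, adjusted p = 0.0385) and Psmb9 (0.60, adjusted p = 0.0427) higher and H2-K1 (-0.89, adjusted p = 0.00707) and Psmb10 (-0.71, adjusted p = 0.0488) lower in DC than in T cells. In TDC against T cells it called H2-K1 (-0.76, adjusted p = 0.0119), Psmb8 (-0.82, adjusted p = 0.0137), Psmb9 (-0.60, adjusted p = 0.0343) and Psmb10 (-0.69, adjusted p = 0.0451) lower. In TDC against DC it called Tap1 (-1.05, adjusted p = 0.0165), Psmb8 (-0.89, adjusted p = 0.0176) and Psmb9 (-1.20, adjusted p = 0.00307) lower. These are 2 higher and 2 lower of 10 for DC against T cells, where that fit called 19.1% of all genes higher and 13.7% lower. They are 0 higher and 4 lower for TDC against T cells, beside 25.8% and 16.7%, and 0 higher and 3 lower for TDC against DC, beside 13.9% and 8.25%. At 10 genes, a count of 2 lies near the background. The fold changes were near those without the covariate. For H2-K1 in DC against T cells the SE was 0.19 with the covariate and 0.31 without it, and the standard errors of all 10 genes were smaller with the covariate in all 3 comparisons. With the 3 libraries of highest share left out instead, H2-K1 was called lower in DC (-0.91, adjusted p = 0.0487) and in TDC (-0.92, adjusted p = 0.0400) than in T cells. In that fit DC were called above T cells for Tap1 (0.95, adjusted p = 0.0445), and TDC below DC (-1.16, adjusted p = 0.0445). The members' counts were 1 higher and 1 lower, 0 and 1, and 0 and 1 in the 3 comparisons, beside 14.8% higher and 7.75% lower, 19.9% and 9.88%, and 6.07% and 3.02% of all 14804 genes tested there.

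Class I genes outside the 10 did give calls. Of 19 further class I heavy chains and class I-like proteins, 16 were tested, and H2-T3, H2-Q1 and H2-Q2 had too few reads. edgeR called 3 higher and 4 lower for DC against T cells. It called 5 higher and 5 lower for TDC against T cells, and 4 higher and 2 lower for TDC against DC. Of all 14708 genes it called 15.4% higher and 8.41% lower, 21.8% and 11.2%, and 9.55% and 4.60%, in that order. H2-Q7, a Qa-2 heavy chain, was at 1097 ± 63.4 CPM in T cells, 219 ± 17.2 in DC and 91.4 ± 55.1 in TDC, and was lower than in T cells in DC (-2.32, adjusted p = 0.00200) and TDC (-3.58, adjusted p = 0.000154). H2-Q6 and H2-Q7 are near-identical copies, so their separate counts are uncertain. Fcgrt, the Fc receptor that recycles IgG and albumin and pairs with B2m, was at 37.2 ± 13.7, 137 ± 24 and 1760.4 ± 624 CPM in T cells, DC and TDC (TDC against DC 3.68, SE 0.40, adjusted p = 0.000436). Hfe, the iron regulator that also pairs with B2m, reached 212 ± 61.8 CPM in DC and 875 ± 328 in TDC (adjusted p = 0.0371), with reads in only 1 of 3 T cell libraries. Cd1d1, which presents lipids, was at 63.0 ± 14.0, 107 ± 16.0 and 296 ± 77.3 CPM, with TDC above T cells (2.23, adjusted p = 0.000450) and DC (1.47, adjusted p = 0.0104).

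Among 8 chaperones and other factors that fold class I molecules or load and trim their peptides, edgeR called 4 higher in TDC than in T cells (Calr, Canx, Hspa5 and Pdia3), 2 higher in TDC than in DC (Canx and Pdia3) and 1 higher in DC than in T cells (Hspa5), and none lower by edgeR, DESeq2, limma-voom or an unadjusted p under 0.05. Over all genes, edgeR called 21.8%, 9.55% and 15.4% higher in these comparisons. The 8 factors had a median log2 fold change of 1.17 for TDC against T cells, beside 0.14 over all genes. Pdia3, the disulfide isomerase bound to tapasin, was at 831 ± 52.3 CPM in T cells, 1023 ± 183 in DC and 2274 ± 439 in TDC (TDC against DC 1.15, SE 0.28, adjusted p = 0.0217). Canx, the lectin chaperone that holds new heavy chains, was at 146 ± 33.6, 299 ± 169.7 and 868 ± 291 CPM (TDC against DC 1.54, SE 0.46, adjusted p = 0.0495). These proteins also serve folding in general. Stress and immediate early genes summed to 2603 to 3893 CPM in T cells, 11347 to 19773 in DC and 15421 to 23584 in TDC, and their part in the chaperone levels was not tested. Erap1, which trims peptides in the endoplasmic reticulum, was at 74.1 ± 17.1, 71.1 ± 26.5 and 104 ± 61.1 CPM and was not called.

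The rest of the proteasome gave few calls. Over all genes, 23.8% were called for DC against T cells, 33.0% for TDC against T cells and 14.1% for TDC against DC. Of 9 activators and assembly factors, 11 other 20S subunits and 18 subunits of the 19S cap, edgeR called only Psme4 (1.06, adjusted p = 0.0456) and Psmd1 (1.37, adjusted p = 0.0155), both higher in TDC than in T cells, and none in the other comparisons. At an unadjusted p under 0.05 those other comparisons had 1 gene lower for DC against T cells and 3 higher and 1 lower for TDC against DC, where DESeq2 and limma-voom each called 1 higher. Psme1 and Psme2, the interferon-induced PA28 activator, were at 628 ± 201 and 537 ± 187 CPM in T cells, 622 ± 326 and 478 ± 295 in DC and 356 ± 126 and 299.6 ± 121 in TDC. Among 7 cytosolic peptidases, Lap3, an interferon-induced leucine aminopeptidase, was at 31.1 ± 5.95 CPM in T cells, 32.7 ± 4.59 in DC and 388 ± 94.9 in TDC (TDC against T cells 3.64, SE 0.33, adjusted p = 2.56e-05).

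Among 15 transcription factors that act at class I promoters, edgeR called 4 higher and 2 lower for DC against T cells. It called 5 higher and 2 lower for TDC against T cells, and 1 higher and 2 lower for TDC against DC. Over all genes the shares were 15.4% higher and 8.41% lower, 21.8% and 11.2%, and 9.55% and 4.60%, in that order. Irf1, an interferon-induced activator of class I genes, was at 513 ± 93.6 CPM in T cells, 236 ± 55.0 in DC and 321 ± 37.0 in TDC, and was lower in DC than in T cells (-1.12, SE 0.29, adjusted p = 0.0164). Nfkb1 was at 46.3 ± 10.0, 329 ± 46.3 and 94.0 ± 30.6 CPM, with DC above T cells (2.83, adjusted p = 0.000189) and TDC below DC (-1.81, adjusted p = 0.00510). Ciita, the class II counterpart of Nlrc5, was at 0.517 ± 0.445, 446 ± 202 and 50.3 ± 40.2 CPM and was lower in TDC than in DC (-3.15, adjusted p = 0.0172). Nfyb, a subunit of NF-Y, was lower in DC (-1.26, adjusted p = 0.0413) and TDC (-1.78, adjusted p = 0.00674) than in T cells.

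Interferon induces most of the 10 genes, so its receptors and other targets were counted too. Of 19 interferon-stimulated genes, edgeR called 11 higher and 2 lower for TDC against T cells, and 8 higher and 1 lower for TDC against DC. DC against T cells gave 6 higher and 5 lower. Over all genes the shares were 21.8% higher and 11.2% lower, 9.55% and 4.60%, and 15.4% and 8.41%, in that order. Cxcl10 was at 2.52 ± 0.804, 21.6 ± 9.18 and 147 ± 11.8 CPM in T cells, DC and TDC (TDC against DC 2.77, SE 0.41, adjusted p = 0.00176), whereas Gbp4 was at 200.0 ± 41.5, 62.8 ± 8.38 and 21 ± 4.02 CPM (-1.58, SE 0.30, adjusted p = 0.00597). Ifnar2, a type I interferon receptor chain, was at 77.6 ± 5.51, 132 ± 27.9 and 419.5 ± 75.7 CPM, with TDC above T cells (2.43, adjusted p = 0.000163) and DC (1.66, adjusted p = 0.00394). Of 7 receptor and kinase genes, 4 were called higher in DC than in T cells and 3 in TDC than in T cells. For TDC against DC, edgeR called 1 higher (Ifnar2) and 1 lower (Jak2, -2.57, adjusted p = 0.0191). Jak2 was at 59.1 ± 10.9, 479 ± 277 and 80.7 ± 47.7 CPM in T cells, DC and TDC.

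Cross-presentation is the loading of class I with material from outside the cell. Of 10 genes tied to it, edgeR called 4 higher in DC than in T cells, 5 higher in TDC than in T cells and 1 lower in TDC than in DC (Clec9a, -2.92, adjusted p = 0.0118). Over all genes, 15.4% and 21.8% were called higher in DC and TDC than in T cells, and 4.60% lower in TDC than in DC. Batf3, a transcription factor of type 1 DC, had no reads in T cells and 155 ± 95.2 CPM in DC and 50.4 ± 22.2 in TDC. Among 8 receptors that bind class I, 2 had higher and 5 lower calls for TDC against T cells. Over all genes the shares were 21.8% higher and 11.2% lower. Pirb, an inhibitory receptor for class I, was at 0.480 ± 0.630 CPM in T cells, 537 ± 130.2 in DC and 826 ± 51.9 in TDC. Cd8b1, a chain of the CD8 coreceptor, was at 1132 ± 329, 8.68 ± 5.72 and 27.6 ± 16.3 CPM.

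The genes whose levels followed H2-K1 most closely over the 9 libraries, by Pearson's r of log2(CPM + 1), were Dph5 (0.98), Snord21 (0.97) and Pop5 (0.97). For Tap1 they were Baz2a (0.97), Pik3r5 (0.96) and Idi1 (0.96), and for Nlrc5 they were Snrk (0.94), Kifc2 (0.92) and Xrn1 (0.92). Snord21 was very low, from 0.0557 CPM in TDC replicate 2, which is 1 read, to 1.05 CPM in T cell replicate 1. Genes with clone-based names were left out of these rankings. Among the 10 themselves, Psmb8 and Psmb9 had r = 0.95, and Tapbp ran against both (r = -0.92 and -0.86). Tap1 likewise ran against H2-D1 and B2m (r = -0.90 and -0.88). These are descriptions over libraries that share a population and the ribosomal axis described above.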

How the data were processed

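RNA was measured in 9 libraries, 3 each of T cells, DC and TDC, made with a stranded QuantSeq 3′ kit per the labels' protocols. The authors deposited whole-number read counts per gene, not normalised. The submitters' processing notes name FastQC, MultiQC, Trimmomatic, STAR, featureCounts and the build hg38, although samples and gene symbols are mouse. The sources used here give no version, annotation or strand setting, so reads of overlapping genes may not be separated. Psmb9 and Tap1 overlap at their starts, whereas the kit is a 3′ kit, and how many of their reads fall in that overlap was not tested.

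Counts were tested with edgeR 4.0.16 (R 4.3.3): filterByExpr (minimum count 10, minimum total 15), TMM factors, and a robust quasi-likelihood fit of the 9 libraries (residual degrees of freedom 6). The 14708 genes left by the filter held 99.8% or more of every library. Adjusted p under 0.05 was a call. All 10 members passed the filter. Libraries of a group differed beyond sampling noise (chi-square per degree of freedom 62.3 to 250.4). Each library is a pool of mice, so p-values measure the spread between pools. Same-numbered libraries did not deviate together (r from -0.53 to 0.36), so numbers were not treated as pairs.

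Alternatives were DESeq2 1.42.0 size factors and Wald test, limma-voom (limma 3.58.1), scaling by upper quartile or library size, a 10 CPM filter or none, fits of 2 groups, the replicate block and leaving out libraries. Promoters are from RefSeq, gene positions and transcript lengths from GENCODE M21, and alignments from Biopython 1.88. Scripts were tested on simulated data. The members and gene lists were chosen with earlier results of these data known. All 10 members are named whatever their result, and of each other list at most 4 genes with the smallest adjusted p for TDC. The rule also names Zbtb46 and the 3 genes most like H2-K1, Tap1 and Nlrc5. Irf1, H2-Q6, Erap1, H2-DMb2, H2-Oa, H2-Ob, H2-T3, H2-Q1, H2-Q2 and Dpp4 fall outside it and were named after their values were seen.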

Additional observations from a re-analysis of the deposited data

How the results depend on the processing

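With the 10 genes counted over 14708 tested, a change of scaling, test or filter moved the count of calls from 0 and no fit called a member higher in the alternatives planned at the start. Scaling by library size alone shifted the median of all genes by -0.29, -0.61 and -0.28 (DC against T, TDC against T, TDC against DC). It called 2, 5 and 2 members lower, beside 1885, 3320 and 1002 of all 14708 genes. Upper-quartile factors shifted the median by -0.08, -0.25 and -0.13. They called 1 member lower in TDC against T (H2-K1), beside 2140 of all 14708 genes. DESeq2 size factors called 1 lower in DC against T (H2-K1), beside 1279 of 14708 genes. No filter called 1 lower in TDC against DC (Psmb9), beside 742 of 26838 genes. The DESeq2 Wald test called 1, 1 and 1 lower, beside 1718, 2176 and 1234 of 14708 genes. The limma-voom test called 1, 1 and 0 lower, beside 1720, 2049 and 1051 of 14708 genes. With the ribosomal covariate, chosen after seeing the data, 2 were higher and 2 lower, then 4 lower, then 3 lower. Without the 3 libraries of highest ribosomal share, also chosen after seeing the data, 1 was higher and 1 lower, then 1 and 1 lower. Leaving out single libraries or replicate numbers gave 0 to 1 lower and 0 higher in each comparison. T cell libraries moved no count. Leaving out DC replicate 2 brought Tap1 (TDC against DC), beside 584 of 15494 genes lower. Leaving out TDC replicate 1 brought H2-K1 in both comparisons with T cells. That fit called 1336 (DC) and 1491 (TDC) of 15675 genes lower than in T cells.

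Under library size alone, signs turned for Tapbp (-0.24) and Psmb8 (-0.20) in DC against T, H2-D1 (-0.50), B2m (-0.45) and Tapbp (-0.0528) in TDC against T, and H2-K1 (-0.15) in TDC against DC. Under upper-quartile factors they turned for Tapbp (-0.0831) in DC against T, and H2-D1 (-0.12) and B2m (-0.0724) in TDC against T. Psmb10 in TDC against DC turned to 0.0021 with limma-voom, 0.0867 with the replicate block and 0.0215 with the covariate. Without the 3 libraries, Psmb8 in DC against T was -0.0236, H2-D1 in TDC against T -0.0762, and H2-K1, Psmb10 and Nlrc5 in TDC against DC -0.00613, 0.0972 and 0.105. None of these had an adjusted p under 0.05, and the cause was not tested.

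With single libraries or replicate numbers left out, ranges that crossed 0 were -0.29 to 0.42 (Psmb8) and -0.21 to 0.33 (Tapbp) in DC against T. In TDC against T they were -0.33 to 0.61 (B2m), -0.12 to 0.24 (H2-D1) and -0.52 to 0.18 (Tap1). In TDC against DC they were -0.68 to 0.65 (Psmb10), -0.86 to 0.29 (Nlrc5), -0.0692 to 0.33 (H2-K1) and -0.56 to 0.0941 (Tap2). Of the shares, Psmb8 with Psmb5 in DC against T ranged from -1.09 to 0.315 percentage points, Psmb9 with Psmb6 in TDC against T from -2.29 to 5.08, and the summed share in TDC against DC from -0.0813 to 0.219. The other shares kept their sign in every library left out, as H2-K1 did against both DC (-9.13 to -6.78 in TDC) and T cells (-14.8 to -12.4 in TDC). The replicate block called 0 members, and all genes called went from 2269 higher and 1237 lower, 3204 and 1654, and 1404 and 677 to 1855 and 981, 2758 and 1188, and 1055 and 431. Library size alone gave 1902 and 1885, 2492 and 3320, and 1135 and 1002. The covariate gave 2816 and 2020, 3794 and 2460, and 2046 and 1213, and the fit without the 3 libraries 2192 and 1148, 2942 and 1463, and 898 and 447. For TDC against DC, DESeq2 called 1234 and limma-voom 1051 genes lower. The lowest value of any member, 18.8 CPM for Nlrc5 in TDC replicate 1, lies well above the 0.0705 CPM that 3 reads over the TDC group give.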
